A study of Homo sapiens with 48 samples.

Results

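The BCL2 family decides whether the outer mitochondrial membrane stays closed or is permeabilised, and 10 of its genes were followed here: BCL2, BCL2L1, MCL1, BCL2L2, BAX, BAK1, BBC3, PMAIP1, BCL2L11 and BID. They were chosen by name, and all 10 were found by Ensembl identifier among the 48898 genes of a table of messenger RNA counts. It covers 48 libraries from human cell lines, 3 in each of 16 groups. Groups with doxorubicin received 200 nM for 48 h, a topoisomerase II poison that damages DNA and was given to induce senescence. In IMR-90, a line of fetal lung fibroblasts, and in SK-MEL-103, a melanoma line, doxorubicin-treated groups had been transfected the day before with siMFN1, siMFN2, both (siMFN1+2), siMAVS or a negative control siRNA (cNEG), and RNA was taken on day 7. Their reference was proliferating cells without doxorubicin that also carried the control siRNA. In a further IMR-90 experiment, doxorubicin-treated cells were given MFI8 (20 µM), BI (10 µM) or only their solvent, DMSO, for 48 h from day 7. RNA was taken on day 9, and proliferating cells with DMSO were the reference. No harvest day is given for proliferating cells, so for them day 7 and day 9, here and in the figures, name the experiment. The IMR-90 experiments also differ by the control siRNA and DMSO, so an effect of the day cannot be told apart from these. The labels describe MFI8 as an inhibitor and BI as an activator of the mitofusins MFN1 and MFN2, which join the outer membranes of mitochondria. On the same membrane, MAVS relays the sensing of cytosolic RNA. Each line is 1 cell line, so the comparison of lines rests on 1 fibroblast and 1 melanoma line. Separate cultures are not stated for the replicates, so p-values measure the spread between these libraries, which may be technical.

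Proteins of the family fall into 3 roles. The guardians BCL2, BCL2L1 (BCL-XL), MCL1 and BCL2L2 (BCL-W) hold the others in check. The pore formers BAX and BAK1 assemble in the membrane and release cytochrome c, which sets off the caspases. The BH3-only proteins BBC3 (PUMA), PMAIP1 (NOXA), BCL2L11 (BIM) and BID relay damage and stress to both. Senescent cells are known for resisting apoptosis, and drugs that block BCL-XL, BCL-W and BCL2 remove some senescent cell types. The proteins are also controlled after transcription, by turnover, splicing and binding, and none of that was measured here.

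Libraries held 15206115 to 79204217 counts, and depth followed the replicate number, with 1 library of each number in every group. The share of counts from mitochondrially encoded genes also moved with the groups, at 3.79 to 4.93% in doxorubicin-treated IMR-90 cells with cNEG against 0.912 to 1.35% in proliferating ones, 2.48 to 4.57% against 0.760 to 0.981% on day 9, and 2.34 to 2.75% against 0.691 to 0.882% in SK-MEL-103. With siMFN1+2 it was 0.383 to 1.10% in IMR-90 and 1.18 to 1.53% in SK-MEL-103, and its part in the results was not tested. Levels below are CPM, counts relative to library size in the units of edgeR's cpm function, after 1 scaling of all 48 libraries by the trimmed mean of M-values (TMM), and levels of different genes are compared only as CPM per kilobase of exon. Differences are log2 fold changes with their standard error (SE) from edgeR's quasi-likelihood test. Genes with an adjusted p (Benjamini-Hochberg, over every gene in the comparison) below 0.05 are called. The siRNAs lowered their targets: in IMR-90, the log2 fold change of MFN1 with siMFN1 was -2.74, that of MFN2 with siMFN2 -3.20 and that of MAVS with siMAVS -1.52, and in SK-MEL-103 they were -1.56, -2.29 and -1.42, all called. With doxorubicin the cell cycle inhibitor CDKN1A rose and the proliferation gene MKI67 fell in both lines and in both IMR-90 experiments (called in all 3 comparisons). MKI67 averaged 22.8 ± 13.1 CPM in doxorubicin-treated IMR-90 cells with cNEG, against 506 ± 21.7 CPM in proliferating ones. It averaged 54.0 ± 29.2 CPM on day 9 against 524 ± 92.7 CPM, and 0.450 ± 0.467 CPM in SK-MEL-103 against 248 ± 73.0 CPM (SD, n = 3 each). The 7 fibroblast markers summed to 5300 to 51100 CPM in IMR-90 libraries and to 15.4 to 110 CPM in SK-MEL-103 libraries. The 7 melanoma markers summed to 379 to 670 CPM in SK-MEL-103 libraries. In IMR-90 libraries they summed to 16.9 to 79.2 CPM, and the highest group mean of a single one was 65.3 CPM. Of these markers, SOX10 was high in SK-MEL-103 (590 CPM with doxorubicin, 493 CPM in proliferating cells). The pigment genes PMEL, MLANA, TYR and DCT averaged at most 1.62 CPM there, and the remaining melanoma markers are given in the sums only. Summed markers of epithelium, endothelium and leukocytes did not exceed 10.8 CPM in any library. In bulk RNA, fewer cells that express a gene and less of its RNA per cell cannot be told apart.

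Doxorubicin changed the guardians in opposite directions. BCL2 fell steeply in all 3 comparisons, BCL2L1 rose in all 3, BCL2L2 rose in IMR-90 and was not called in SK-MEL-103, and MCL1 was not called in any. Of the 10 members, 5 rose and 1 fell in IMR-90 on day 7, where 51.8% of the 19077 genes tested were called (27.4% higher, 24.4% lower). In IMR-90 with DMSO on day 9, 4 rose and 2 fell, where 55.9% of 19056 were called (28.8% higher, 27.1% lower), and in SK-MEL-103, 4 rose and 4 fell, where 60.4% of 17945 were called (29.8% higher, 30.6% lower). Calls on 6, 6 and 8 of the 10 members stand near these shares of all genes, so the counts themselves set the family apart from no other gene. The libraries of both groups did not overlap for 6 members in IMR-90 on day 7, where this held for 55.8% of all genes, for 7 on day 9 (62.4% of all genes) and for 8 in SK-MEL-103 (62.6%). All 10 passed the filter on low counts in every comparison. Their median log2 fold change was 0.31 in IMR-90 on day 7 (all genes 0.09), -0.08 in SK-MEL-103 (0.03) and 0.06 on day 9 (0.10).

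**Figure D1:**
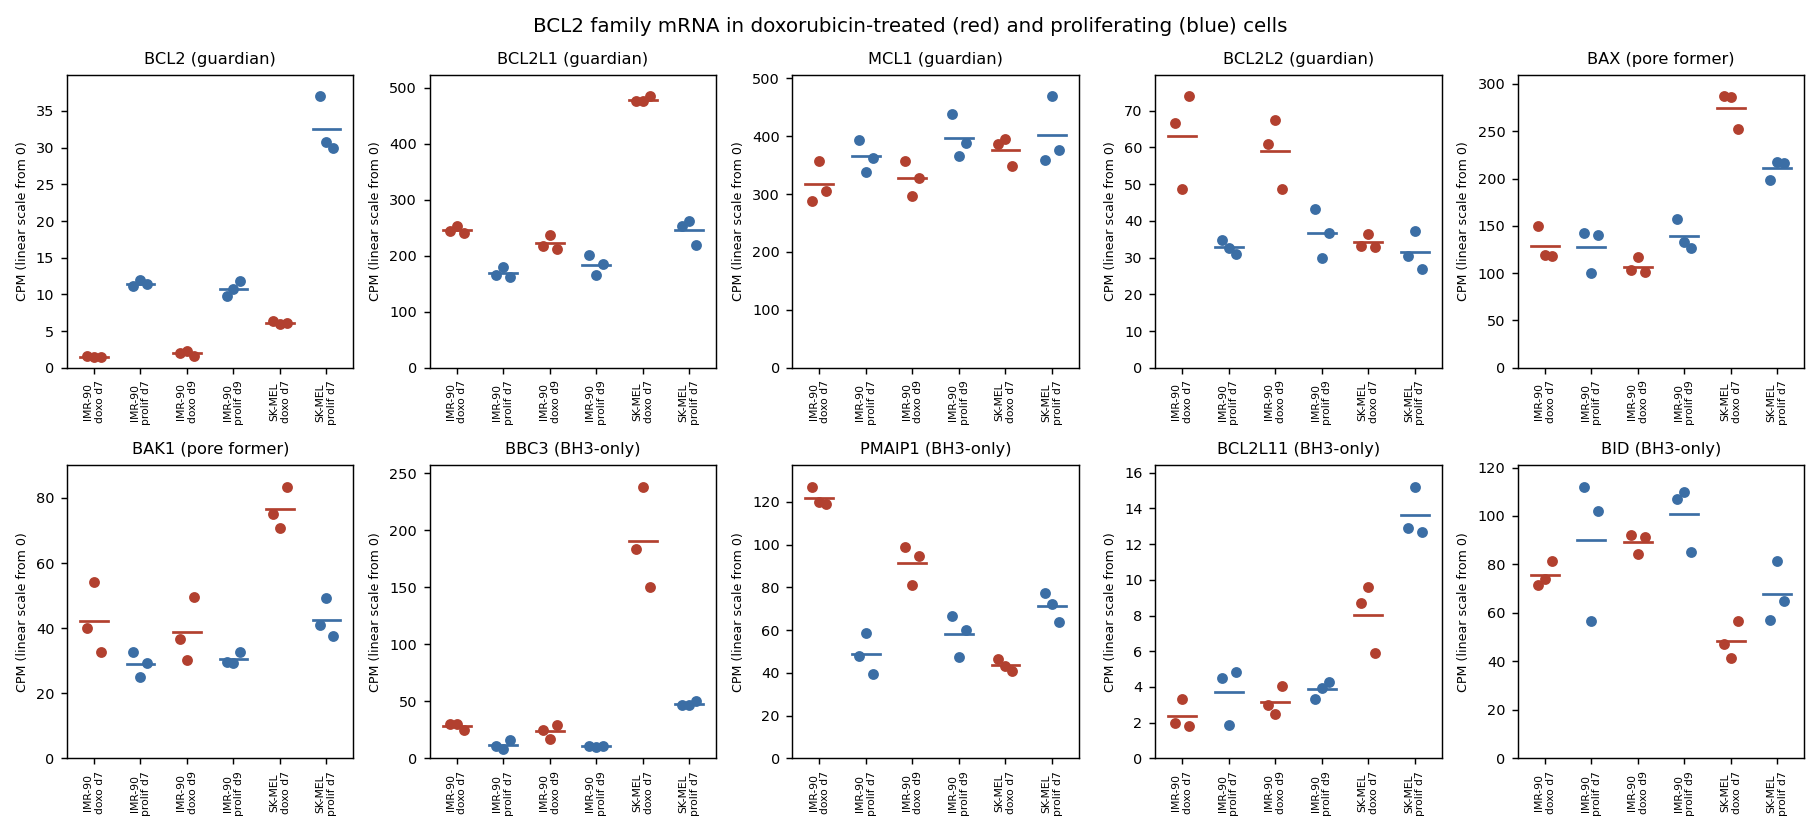
CPM of the 10 members in each library (points, libraries 1 to 3 from left to right) with the group mean (line), in doxorubicin-treated (red) and proliferating (blue) cells of the 3 experiments, on linear axes from 0. BCL2 is low in every doxorubicin-treated library, and PMAIP1 is high in doxorubicin-treated IMR-90 cells and low in doxorubicin-treated SK-MEL-103 cells.

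BCL2 (ENSG00000171791, GRCh38 chromosome 18, 63123346 to 63320128, minus strand) is the founding guardian. It had 1.57, 1.43 and 1.41 CPM in the 3 doxorubicin-treated IMR-90 libraries on day 7, against 11.1, 11.9 and 11.4 CPM in proliferating ones. With DMSO on day 9 it had 2.01, 2.29 and 1.62 CPM against 9.74, 10.8 and 11.8 CPM, and in SK-MEL-103 6.35, 5.96 and 6.12 CPM against 37.0, 30.8 and 30.0 CPM. Every doxorubicin-treated library was below every proliferating library of its experiment. The log2 fold change was -2.92 (SE 0.32, adjusted p = 4.05e-06) in IMR-90 on day 7, -2.40 (SE 0.22, adjusted p = 9.28e-06) on day 9 and -2.51 (SE 0.14, adjusted p = 1.9e-10) in SK-MEL-103. The doxorubicin-treated IMR-90 libraries held 37 to 104 counts of it on day 7 and 25 to 155 on day 9, fewer than for most other members.

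BCL2L1 (ENSG00000171552, chromosome 20, 31664452 to 31723989, minus strand) encodes BCL-XL in its long splice form and a pro-apoptotic short form, and counts per gene do not separate them. Levels were 244, 253 and 240 CPM in doxorubicin-treated IMR-90 cells on day 7, against 165, 180 and 162 CPM in proliferating cells. In SK-MEL-103 they were 476, 476 and 485 CPM with doxorubicin, against 253, 263 and 220 CPM. Groups did not overlap in any of the 3 comparisons, although on day 9 the gap was narrow, with 217, 238 and 212 CPM with doxorubicin and 201, 165 and 185 CPM without. The log2 fold change was 0.57 (SE 0.09, adjusted p = 9.71e-05) in IMR-90 on day 7, 0.87 (SE 0.07, adjusted p = 1.92e-08) in SK-MEL-103 and 0.28 (SE 0.08, adjusted p = 0.0152) on day 9. The day 9 call was lost without library 2 of either group (0.23 and 0.21, adjusted p = 0.0584 and 0.0724). The antisense gene ABALON lies over 43.0% of the exon bases of BCL2L1 on the opposite strand and was low, 0.281 ± 0.281 CPM in doxorubicin-treated IMR-90 cells.

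MCL1 (ENSG00000143384, chromosome 1, 150574551 to 150579738, minus strand), a guardian with a short-lived protein, had 288, 357 and 305 CPM in doxorubicin-treated IMR-90 cells on day 7, against 394, 338 and 363 CPM in proliferating cells. The groups overlapped, and the log2 fold change was -0.17, with an interval of 2 SE on either side from -0.44 to 0.09 (adjusted p = 0.292). In SK-MEL-103, where it had 387, 395 and 348 CPM against 359, 469 and 376 CPM, the difference was -0.19 (interval -0.39 to 0.01, adjusted p = 0.118), and without the first proliferating library -0.27 (adjusted p = 0.0340). On day 9 the values were 358, 297 and 327 CPM against 439, 365 and 388 CPM, without overlap, and the difference was -0.27 (interval -0.49 to -0.05, adjusted p = 0.0602). It was called there without doxorubicin-treated library 1 (-0.34, adjusted p = 0.0480) or proliferating library 2 (-0.33, adjusted p = 0.0495).

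BCL2L2 (ENSG00000129473, chromosome 14, 23298790 to 23311759, plus strand) had 66.5, 48.6 and 73.9 CPM in doxorubicin-treated IMR-90 cells on day 7, against 34.8, 32.7 and 31.1 CPM in proliferating cells. All 3 doxorubicin-treated libraries were higher, with a log2 fold change of 0.97 (SE 0.19, adjusted p = 0.000676), and on day 9 it was 0.70 (SE 0.17, adjusted p = 0.00623). In SK-MEL-103 the libraries overlapped, with 33.1, 36.5 and 33.0 CPM with doxorubicin against 30.3, 37.2 and 26.9 CPM, and the difference was 0.02 (interval -0.22 to 0.27, adjusted p = 0.883). The read-through gene BCL2L2-PABPN1 shares 19.4% of its exon bases on the same strand, so reads there could be given to either. It was counted at 1.54 ± 0.137 CPM in doxorubicin-treated and 0.435 ± 0.190 CPM in proliferating IMR-90 cells, far below BCL2L2.

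Per kilobase of exon, BCL2L1 and MCL1 made up most of the guardian RNA in every group, and the balance between them moved with doxorubicin. BCL2L1 contributed 45.9 ± 1.26% of summed guardian CPM per kilobase in doxorubicin-treated IMR-90 cells on day 7, against 35.6 ± 2.72% in proliferating cells, and MCL1 44.7% against 58.2%. In SK-MEL-103 BCL2L1 contributed 60.4 ± 1.81% with doxorubicin, against 42.1 ± 2.68%, and MCL1 36% against 52.0%. On day 9 the share of BCL2L1 was 43.0 ± 2.83% against 35.5 ± 0.542% (SD, n = 3 each). BCL2 was at most 1.59% of guardian RNA in these 6 groups, 0.0774% against 0.682% in IMR-90 on day 7 and 0.218% against 1.59% in SK-MEL-103. BCL2L2 was 9.35% against 5.48% in IMR-90 on day 7 and 3.41% against 4.25% in SK-MEL-103. Summed guardian RNA was 162 ± 7.19 CPM per kilobase with doxorubicin against 143 ± 5.17 in IMR-90 on day 7, 156 ± 5.84 against 156 ± 15.5 on day 9, and 239 ± 4.49 against 176 ± 19.5 in SK-MEL-103. Exon lengths are unions over all annotated transcripts, so a gene with long rarely used exons, such as BCL2 with 11765 bases, is set low on this scale.

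**Figure D2:**
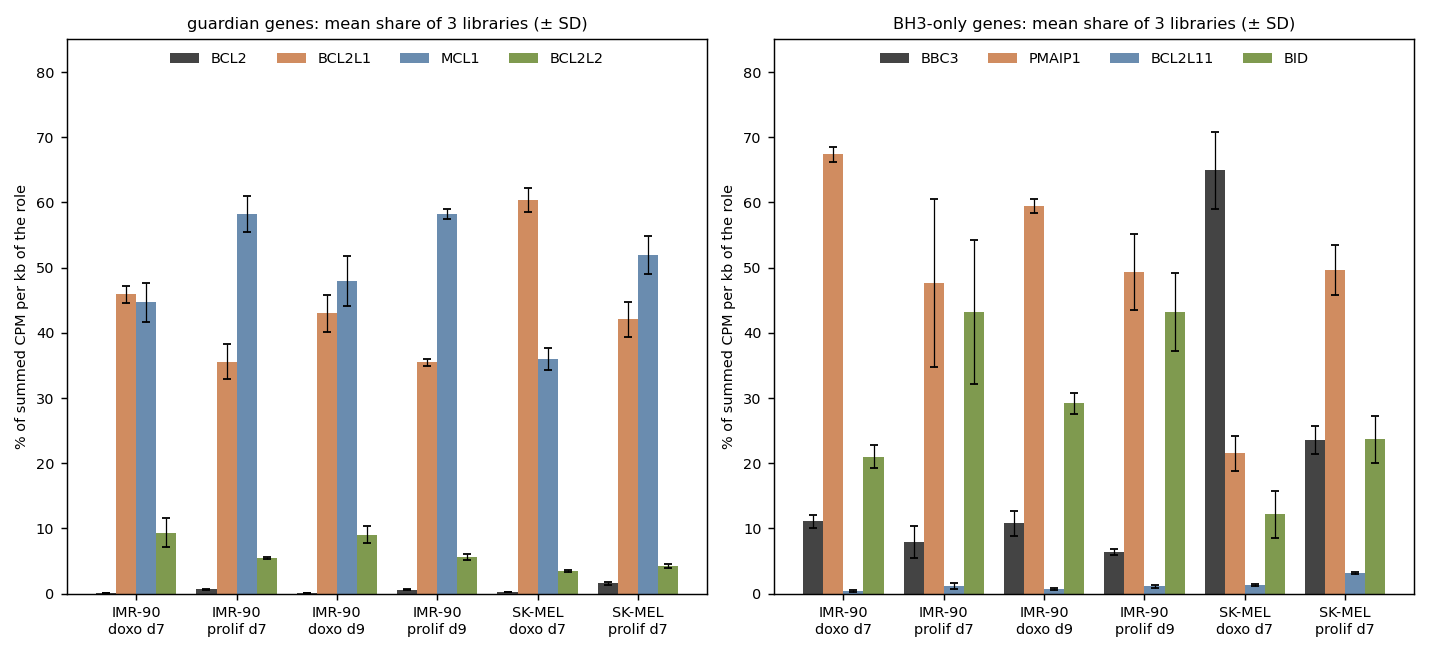
Mean share (bars, ± SD of 3 libraries) of each gene in the summed CPM per kilobase of the guardians (left) and of the BH3-only genes (right), in doxorubicin-treated and proliferating cells. BCL2L1 takes 60.4% of guardian RNA in doxorubicin-treated SK-MEL-103 cells, where BBC3 takes 64.9% of BH3-only RNA, while PMAIP1 takes 67.4% of BH3-only RNA in doxorubicin-treated IMR-90 cells on day 7.

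Of the pore formers, BAX was not called in IMR-90 on day 7, fell in the separate IMR-90 experiment of day 9 and rose in SK-MEL-103. BAK1 rose on day 7 in both lines. BAX (ENSG00000087088, chromosome 19, 48954815 to 48961798, plus strand) had 150, 119 and 118 CPM in doxorubicin-treated IMR-90 cells on day 7, against 142, 100 and 140 CPM in proliferating cells. These libraries overlapped, and the log2 fold change was 0.05 (interval -0.21 to 0.31, adjusted p = 0.774). On day 9 all 3 doxorubicin-treated libraries were lower, at 103, 117 and 101 CPM against 157, 133 and 127 CPM, with a log2 fold change of -0.37 (SE 0.10, adjusted p = 0.00779). In SK-MEL-103 all 3 were higher, at 287, 286 and 252 CPM against 198, 218 and 216 CPM, with 0.29 (SE 0.10, adjusted p = 0.0212). That call was lost without doxorubicin-treated library 1 or 2 or proliferating library 1 (0.24 to 0.27, adjusted p of 0.0671 to 0.0812).

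BAK1 (ENSG00000030110, chromosome 6, 33572547 to 33580293, minus strand), the pore former that sits on mitochondria in resting cells, had 40.1, 54.2 and 32.7 CPM in doxorubicin-treated IMR-90 cells on day 7, against 32.6, 25.0 and 29.4 CPM. The lowest library with doxorubicin was barely above the highest without. Its log2 fold change was 0.58 (SE 0.23, adjusted p = 0.0459), but the call was lost without doxorubicin-treated library 1 or 2 or any 1 of the proliferating libraries (0.36 to 0.66, adjusted p of 0.0618 to 0.222). In SK-MEL-103 BAK1 had 75.2, 70.8 and 83.4 CPM with doxorubicin, against 41.0, 49.4 and 37.5 CPM, without overlap, and rose by 0.75 on the log2 scale (SE 0.13, adjusted p = 9.31e-05). On day 9 it had 36.6, 30.3 and 49.5 CPM against 29.6, 29.4 and 32.6 CPM, and the difference of 0.35 was not called (interval -0.12 to 0.82, adjusted p = 0.226). Summed pore former RNA was 69.0 ± 7.91 CPM per kilobase against 62.4 ± 10.8 in IMR-90 on day 7, 59.1 ± 2.51 against 67.6 ± 5.64 on day 9 and 141 ± 5 against 101 ± 5.80 in SK-MEL-103. In IMR-90, BAX was 72.3% of it with doxorubicin on day 7, against 78.9% in proliferating cells, and 70.4% against 79.5% on day 9. In SK-MEL-103 it was 75.4% against 80.9%.

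**Figure D3:**
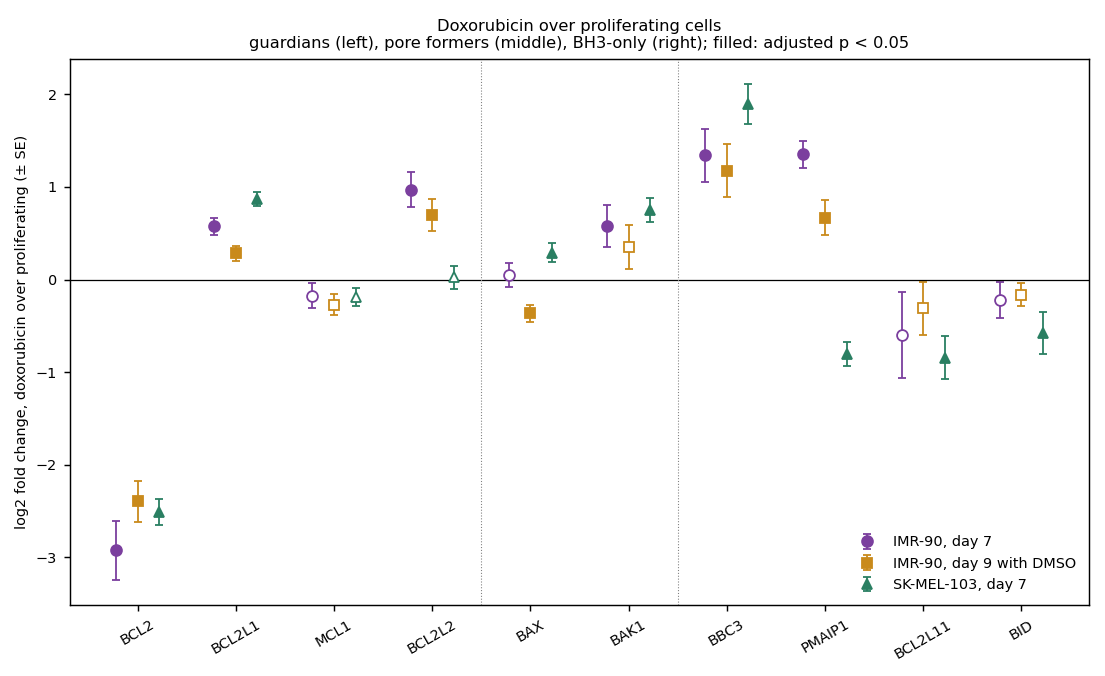
Log2 fold change (± SE) of each member, doxorubicin-treated over proliferating cells, in IMR-90 on day 7 (circles), IMR-90 with DMSO on day 9 (squares) and SK-MEL-103 on day 7 (triangles); filled symbols have an adjusted p below 0.05. BCL2 lies between -2.92 and -2.40 in all 3, BBC3 between 1.18 and 1.90, and PMAIP1 is positive in IMR-90 and negative in SK-MEL-103.

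The BH3-only genes did not move together. BBC3 rose in both lines, PMAIP1 rose in IMR-90 and fell in SK-MEL-103, and BCL2L11 and BID fell in SK-MEL-103 and were not called in IMR-90. BBC3 (ENSG00000105327, chromosome 19, 47220822 to 47232766, minus strand) had 30.4, 30.4 and 25.3 CPM in doxorubicin-treated IMR-90 cells on day 7, against 10.5, 8.69 and 15.8 CPM in proliferating cells. In SK-MEL-103 it had 184, 238 and 150 CPM against 47.1, 46.6 and 50.2 CPM. Groups did not overlap in any comparison, and the doxorubicin-treated SK-MEL-103 libraries were the highest of these groups by a wide margin. The log2 fold change was 1.34 (SE 0.29, adjusted p = 0.00126) in IMR-90 on day 7, 1.18 (SE 0.28, adjusted p = 0.00506) on day 9 and 1.90 (SE 0.22, adjusted p = 9.62e-07) in SK-MEL-103.

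PMAIP1 (ENSG00000141682, chromosome 18, 59899948 to 59904306, plus strand), whose product binds MCL1 above all, rose in both IMR-90 experiments and fell in SK-MEL-103. It had 127, 120 and 119 CPM in doxorubicin-treated IMR-90 cells on day 7, against 47.9, 58.7 and 39.6 CPM in proliferating cells, and on day 9 98.7, 81.3 and 94.8 CPM against 66.4, 47.3 and 60.3 CPM. In SK-MEL-103 it had 46.7, 43.1 and 41.0 CPM with doxorubicin, against 77.5, 72.2 and 63.8 CPM. The groups were apart in each comparison, with the doxorubicin-treated libraries above in IMR-90 and below in SK-MEL-103. The log2 fold change was 1.35 (SE 0.15, adjusted p = 4.36e-06) on day 7, 0.67 (SE 0.19, adjusted p = 0.0119) on day 9 and -0.80 (SE 0.13, adjusted p = 5.62e-05) in SK-MEL-103. Without proliferating library 2 the day 9 value was 0.54 (adjusted p = 0.0507).

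BCL2L11 (ENSG00000153094, chromosome 2, 111119378 to 111168447, plus strand), which binds every guardian, was the rarest BH3-only RNA. It had 1.96, 3.34 and 1.83 CPM in doxorubicin-treated IMR-90 cells on day 7, against 4.50, 1.88 and 4.82 CPM, with overlap and a log2 fold change of -0.60 (interval -1.53 to 0.33, adjusted p = 0.295). In SK-MEL-103 it had 8.71, 9.58 and 5.88 CPM against 12.9, 15.2 and 12.7 CPM and fell by 0.84 on the log2 scale (SE 0.23, adjusted p = 0.00483). MIR4435-2HG overlaps 10.9% of its exon bases on the opposite strand and was counted far higher, 50.3 CPM with doxorubicin and 58.7 CPM in proliferating IMR-90 cells and 81.6 and 76.8 CPM in those of SK-MEL-103. The strand setting of the counting is not given in the sources used here, so reads of the pair may not be told apart and the BCL2L11 values are uncertain. BID (ENSG00000015475, chromosome 22, 17734138 to 17774770, minus strand), which caspase 8 cleaves to link death receptors to mitochondria, had 71.4, 73.9 and 81.4 CPM in doxorubicin-treated IMR-90 cells on day 7, against 112, 56.8 and 102 CPM. Its difference was -0.22 (interval -0.61 to 0.17, adjusted p = 0.356). Without the low second proliferating library it was called, at -0.47 (adjusted p = 0.0142). In SK-MEL-103 BID had 47.2, 41.6 and 56.5 CPM against 56.9, 81.3 and 64.8 CPM, without overlap, and fell by 0.58 (SE 0.23, adjusted p = 0.0354). That call was lost without doxorubicin-treated library 1 or 2 or proliferating library 2 or 3 (-0.60 to -0.45, adjusted p of 0.0572 to 0.138).

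Together, BH3-only RNA summed to 80.9 ± 1.63 CPM per kilobase in doxorubicin-treated IMR-90 cells on day 7, against 46.3 ± 4.24 in proliferating cells, to 69.0 ± 6.82 against 52.5 ± 4.44 on day 9, and to 91.7 ± 13.0 against 64.2 ± 3.35 in SK-MEL-103 (SD, n = 3 each). Different genes made up the sum in each line, as the bars of shares by group show. PMAIP1 contributed 67.4 ± 1.13% of it with doxorubicin in IMR-90 on day 7, against 47.7 ± 12.9%, and BBC3 11.1% against 7.93%. In SK-MEL-103 BBC3 contributed 64.9 ± 5.94% with doxorubicin, against 23.6 ± 2.17%, and PMAIP1 21.5 ± 2.75% against 49.6 ± 3.82%. The share of BID was lower with doxorubicin in all 3, at 21.0% against 43.2%, 29.2% against 43.2% and 12.2% against 23.7%, while BCL2L11 was at most 3.19% in any of these groups.

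Ordered by CPM per kilobase, MCL1 had the highest mean of the members in proliferating cells of both lines (83.5 in IMR-90 and 91.8 in SK-MEL-103). In SK-MEL-103 BAX followed at 81.4, and with an SD of 13.6 for MCL1 that order is within the spread. In doxorubicin-treated SK-MEL-103 cells BCL2L1 led, at 145, before BAX at 106, MCL1 at 86.1 and BBC3 at 60.1. In doxorubicin-treated IMR-90 cells on day 7 BCL2L1 at 74.2 and MCL1 at 72.5 stood side by side, with 54.6 for PMAIP1 and 49.9 for BAX. The SD of MCL1 CPM there was 35.5 on a mean of 317, so the order of BCL2L1 and MCL1 is within the spread. So is that of PMAIP1 and BAX, with an SD of 6.98 CPM per kilobase for BAX. With doxorubicin on day 9 MCL1 led in IMR-90, at 74.9 (SD 6.92) before BCL2L1 at 67.1 (SD 4.24). The bottom of the order was BCL2L11 and BCL2 in all 6 groups, with BCL2 last in both doxorubicin-treated day 7 groups (0.125 in IMR-90 and 0.522 in SK-MEL-103).

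RefSeq promoter windows (GRCh38.p14, 250 bases before to 50 after a start) were matched by symbol, and for 7 of the 10 members bases remained once those in annotated exons of the gene were removed. Those of BBC3, which rose in both lines, of PMAIP1, which went opposite ways in the lines, and of BCL2L11 are printed 5′ to 3′ on the gene's strand, without those exon bases. They lie at chr19:47232767-47232917 (BBC3), chr18:59899746-59899947 (PMAIP1) and chr2:111120664-111120913 (BCL2L11). The BBC3 and PMAIP1 stretches lie just outside the annotated gene, while that of BCL2L11 lies inside it, as the gene begins at 111119378. Capitals mark matches, on either strand, to the motifs given here: the FOXO site GTAAACA, the NF-kB consensus site, the CRE half-site TGACGT and the GC box GGGCGG.
BBC3: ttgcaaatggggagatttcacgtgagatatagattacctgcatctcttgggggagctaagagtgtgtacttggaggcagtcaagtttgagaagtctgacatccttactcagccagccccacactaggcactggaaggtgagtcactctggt
PMAIP1: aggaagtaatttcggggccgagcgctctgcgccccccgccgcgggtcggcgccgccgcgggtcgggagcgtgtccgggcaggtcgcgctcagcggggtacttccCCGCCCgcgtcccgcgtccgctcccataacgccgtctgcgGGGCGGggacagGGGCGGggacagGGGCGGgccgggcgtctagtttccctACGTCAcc
BCL2L11: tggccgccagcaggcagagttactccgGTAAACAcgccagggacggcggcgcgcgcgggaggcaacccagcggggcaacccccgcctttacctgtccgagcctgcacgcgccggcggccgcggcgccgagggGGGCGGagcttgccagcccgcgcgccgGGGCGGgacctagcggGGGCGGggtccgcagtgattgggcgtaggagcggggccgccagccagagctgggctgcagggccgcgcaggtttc
PMAIP1 held 4 GC boxes and a CRE half-site at -56 to -51 from its start. BCL2L11 held a FOXO site at -223 to -217 and 3 GC boxes, and these letters do not occur in the BBC3 window. Of 35116 human promoters, 3.42% hold the FOXO site, 0.191% the NF-kB site, 7.98% the CRE half-site and 45.0% the GC box. These shares are for full windows, which are longer than the stretches printed here. A match is a string of letters and not evidence of binding, and sites outside these windows were not searched.

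The lines were set against each other in 1 fit of 36 libraries, where the difference of the doxorubicin effects on day 7 (SK-MEL-103 minus IMR-90) was tested for 20892 genes and called for 22.2%. Of the members, 3 were called. PMAIP1 had a difference of -2.06 on the log2 scale (SE 0.21, adjusted p = 2.33e-07), BCL2L2 one of -0.85 (SE 0.23, adjusted p = 0.00858) and BCL2L1 one of 0.39 (SE 0.11, adjusted p = 0.0111). The difference for BCL2L1 depended on scaling, at 0.24 with DESeq2's size factors (adjusted p = 0.118) and 0.27 with library totals (adjusted p = 0.217), which shift the differences of all genes by -0.16 and -0.12. For BCL2 the difference was 0.51 (interval -0.13 to 1.16, adjusted p = 0.281) and for BBC3 0.65 (interval -0.09 to 1.39, adjusted p = 0.224). The remaining 5 members had differences between -0.26 and 0.34, all uncalled, except that BAX was called without IMR-90 proliferating library 2 (0.49, adjusted p = 0.0356).

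**Figure D4:**
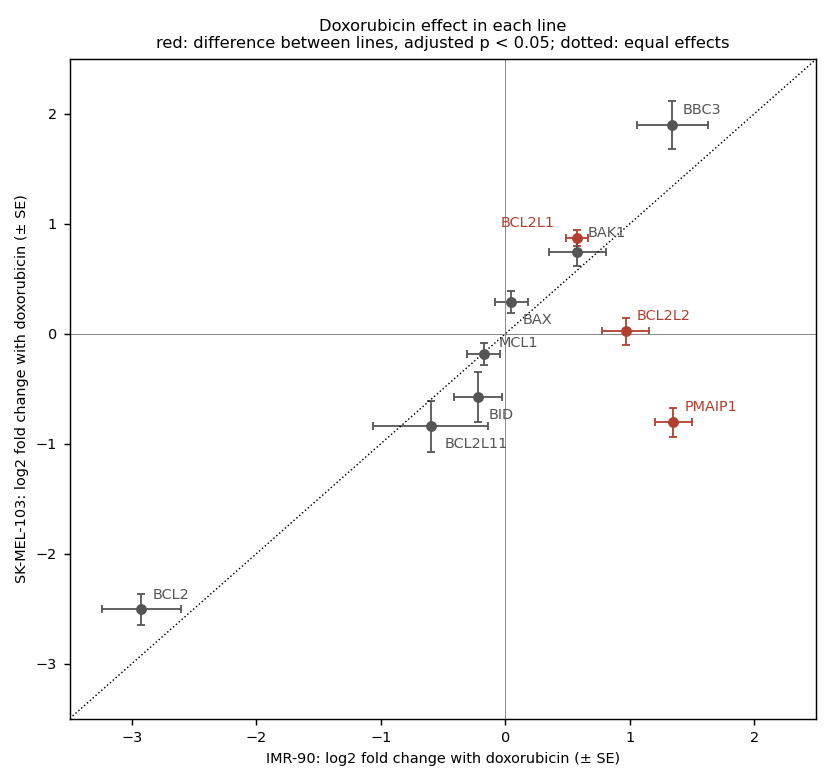
Log2 fold change with doxorubicin (± SE) in SK-MEL-103 (vertical) against IMR-90 on day 7 (horizontal) for the 10 members; red marks an adjusted p below 0.05 for the difference between lines and the dotted line equal effects. PMAIP1 and BCL2L2 lie farthest from the dotted line, below it. BCL2L1 lies above it, as do the uncalled BBC3 and BCL2, and the distances can differ from the tested differences because each line's effect plotted here is from its own fit.

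Levels also differed between the lines. In proliferating cells 7 of the 10 members were higher in SK-MEL-103 than in IMR-90 and none was lower, while 51.9% of all genes were called (23.9% higher, 28% lower). BBC3 differed by 2.09 on the log2 scale (SE 0.27, adjusted p = 2.48e-07), BCL2L11 by 1.91 (SE 0.37, adjusted p = 8.57e-05) and BCL2 by 1.55 (SE 0.21, adjusted p = 5.75e-07). BAX, BAK1, PMAIP1 and BCL2L1 differed by 0.76, 0.60, 0.58 and 0.58. With doxorubicin 9 members differed, where 63.4% of all genes were called (30.6% higher, 32.8% lower): 6 were higher in SK-MEL-103, from BBC3 at 2.74 to BAK1 at 0.86, and PMAIP1 (-1.48), BCL2L2 (-0.87) and BID (-0.64) were lower. MCL1 was called in neither, at 0.18 (interval -0.07 to 0.42) and 0.26 (interval 0.01 to 0.51). Some of these calls rested on 1 library. BAK1 was not called in proliferating cells without library 2 of either line (0.48 and 0.50, adjusted p = 0.0650 and 0.0571), where BID was called without IMR-90 library 2 (-0.61, adjusted p = 0.0189). With doxorubicin, BID was not called without SK-MEL-103 library 2 (-0.53, adjusted p = 0.0673) or with the replicate number as a block (-0.45, adjusted p = 0.0822), and MCL1 was called without that line's library 3 (0.32, adjusted p = 0.0467) or IMR-90 library 2 (0.36, adjusted p = 0.0281). Scaling by library totals raises the differences of all genes by 0.25 in proliferating and 0.14 in doxorubicin-treated cells. With it MCL1 was called in proliferating cells (0.43, adjusted p = 0.0260) and with doxorubicin (0.39, adjusted p = 0.0363), and BID was not called with doxorubicin (-0.50, adjusted p = 0.0698).

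Silencing the mitofusins or MAVS in doxorubicin-treated cells gave log2 fold changes of the members between -0.49 and 0.73 in IMR-90 and between -0.30 and 0.44 in SK-MEL-103. The 4 comparisons of a line share their cNEG control libraries. In IMR-90, edgeR without a replicate block called no member with siMFN1 (1.58% of all genes called), siMFN2 (0.278%), siMFN1+2 (1.57%) or siMAVS (0.634%). With the replicate number as a block it called 1, 0, 0 and 0 members, beside 724, 226, 691 and 409 of all genes. The numbers pair the siMFN1, siMFN2 and siMFN1+2 libraries with cNEG, but not the siMAVS or proliferating libraries, which the block also covers. Without the block, 4, 0, 1 and 1 members had an unadjusted p below 0.05 in these comparisons. Of the 19077 genes tested, 2998, 2569, 3124 and 2875 passed that p. DESeq2 called 1, 0, 0 and 0 members, beside 863, 340, 867 and 576 of all genes.

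With siMFN1 the guardian BCL2L1 had 198, 219 and 177 CPM, against 244, 253 and 240 CPM with cNEG, PMAIP1 84.6, 98.4 and 86.2 CPM against 127, 120 and 119 CPM, and MCL1 232, 278 and 228 CPM against 288, 357 and 305 CPM. All siMFN1 libraries of these 3 genes were below all control libraries, while BCL2 was above in all, at 2.12, 1.70 and 2.02 CPM against 1.57, 1.43 and 1.41 CPM. Thus 4 of the 10 members had groups that did not overlap, against 18.8% of all genes. The log2 fold change of BCL2L1 was -0.32 (SE 0.09, adjusted p = 0.0905), that of PMAIP1 -0.44 (interval -0.74 to -0.15, adjusted p = 0.147) and that of MCL1 -0.37 (interval -0.63 to -0.10, adjusted p = 0.190). BCL2L1 passed the threshold when the replicate number, which pairs these libraries, was a block (-0.32, adjusted p = 0.0472), with the range of library numbers as a term (adjusted p = 0.0421) and in DESeq2 (adjusted p = 0.00456). With that block MCL1 and PMAIP1 were not called. In the paired fit of these 6 libraries alone the calls changed, to MCL1 (-0.36, adjusted p = 0.0353) and PMAIP1 (-0.44, adjusted p = 0.0165), and BCL2L1 was not called. The share of all genes called in that fit is not given here.

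The other IMR-90 siRNAs left BCL2L1 slightly above its control libraries. It had 284, 277 and 267 CPM with siMFN2, 278, 271 and 260 CPM with siMFN1+2 and 274, 275 and 279 CPM with siMAVS, and no siRNA library overlapped the control. The log2 fold changes were 0.15 (interval -0.02 to 0.33), 0.13 (interval -0.05 to 0.31) and 0.15 (interval -0.02 to 0.33), with adjusted p of 0.482, 0.520 and 0.442. PMAIP1 was below its control libraries with all of them, at 110, 104 and 103 CPM with siMFN2, 109, 95.4 and 93.4 CPM with siMFN1+2 and 69.8, 102 and 90.4 CPM with siMAVS. Its log2 fold change with siMAVS was -0.49 (interval -0.79 to -0.20, adjusted p = 0.122). All 3 siMAVS libraries carry sample numbers of a lower range and control library 3 one of a higher range, so this comparison is unbalanced over the ranges. With the range as a term, no member was called with siMAVS either. BCL2L1 and PMAIP1 were the 2 members without overlap in each of these 3 comparisons, against 17.4%, 20.2% and 16% of all genes. Since the control libraries are shared, their own position enters each of these values. Of all members, BCL2 had the largest log2 fold change with siMFN1+2, at 0.73 (interval 0.05 to 1.41, adjusted p = 0.304), on 2.78, 1.42 and 3.59 CPM.

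In SK-MEL-103 no member was called with any siRNA by edgeR or DESeq2, where 0.128% of all genes were called with siMFN1, 0.0669% with siMFN2, 0.240% with siMFN1+2 and 0.1% with siMAVS. DESeq2 called 47, 21, 69 and 28 of all genes. At an unadjusted p below 0.05 there were 0, 0, 1 and 1 members, each time BCL2. Of the 17945 genes tested, 1027, 615, 738 and 650 passed that p. BCL2 had 8.46, 7.40 and 6.37 CPM with siMFN1+2 and 7.30, 6.18 and 9.12 CPM with siMAVS, against 6.35, 5.96 and 6.12 CPM with cNEG. Its log2 fold change was 0.31 in both (intervals 0.02 to 0.60 and 0.02 to 0.61). Groups did not overlap for BCL2 with siMFN1 (16.6% of all genes) and siMFN1+2 (12.4%), where it was higher, for BCL2L1 with siMFN2 (12.4%), where it was lower, and for no member with siMAVS (10.1%). With siMFN1, BCL2L11 had 13.1, 11.7 and 7.65 CPM against 8.71, 9.58 and 5.88 CPM, a log2 fold change of 0.44 (interval -0.03 to 0.91, adjusted p = 0.900). The numbers pair these libraries, and a block for them in the full fit called no member (75, 18, 60 and 26 of all genes). Within the 2 groups alone the block called 5 members with siMFN1, 1 with siMFN2 and 2 with siMFN1+2. Their log2 fold changes were at most 0.45 in size. The share of all genes called in that smaller fit, which leaves few residual degrees of freedom, is not given here. These counts are therefore not read as a result about the members. Over the 5 doxorubicin-treated groups of a line, the highest group mean of a member was 1.06 to 1.77 times the lowest in IMR-90 and 1.06 to 1.56 times in SK-MEL-103. Between the lines, no difference of an siRNA effect was called for a member by edgeR or DESeq2. Of all genes, 0.153%, 0.0431%, 0.144% and 0.0431% were called by edgeR, and 174, 31, 106 and 60 genes by DESeq2. At an unadjusted p below 0.05 there were 2, 1, 0 and 2 members, beside 1931, 1295, 1854 and 1608 of 20892 genes.

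**Figure D5:**
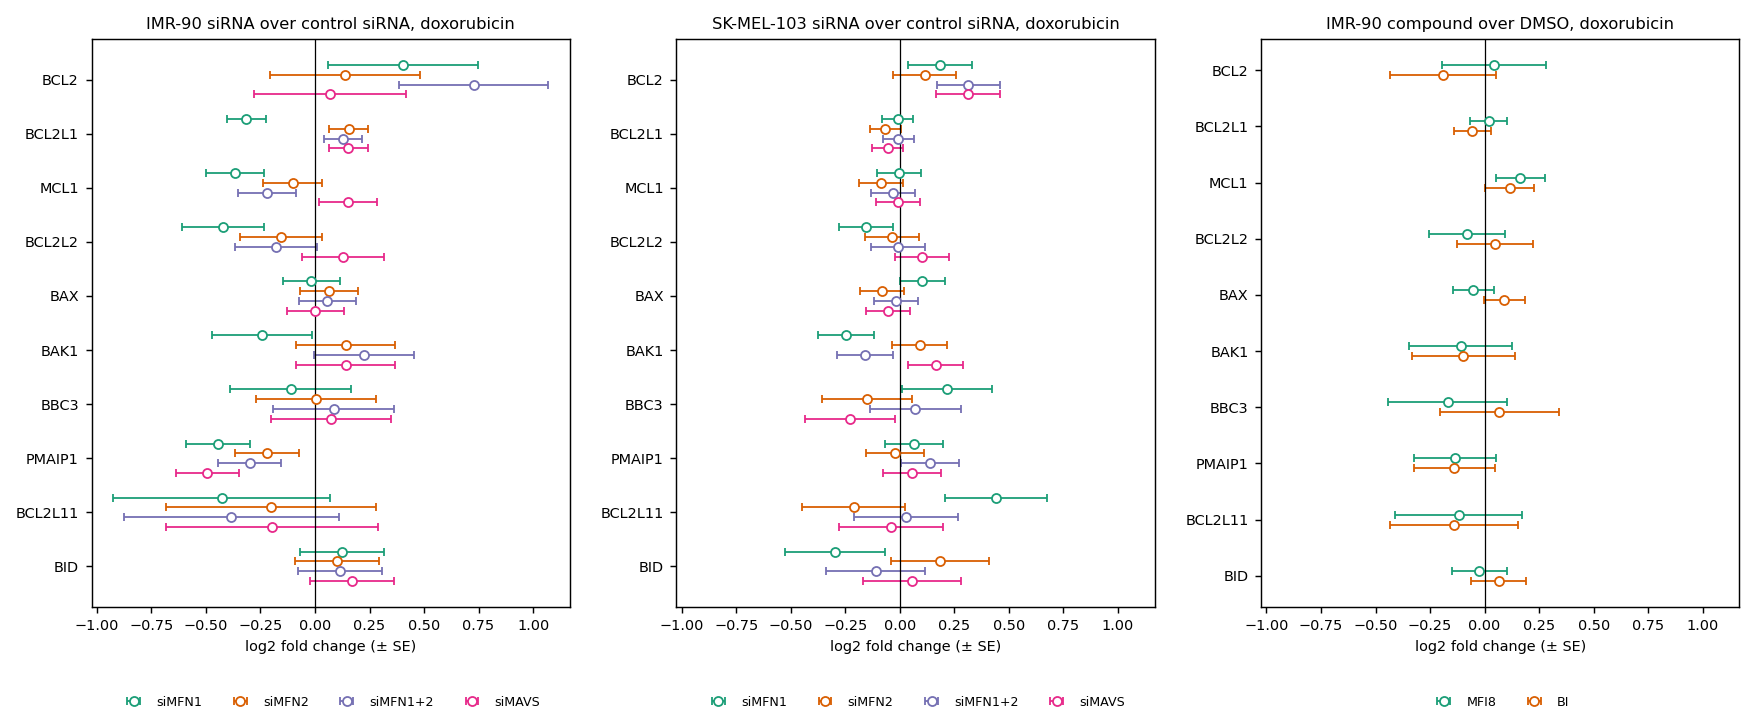
Log2 fold change (± SE) of each member with each siRNA over the control siRNA in doxorubicin-treated IMR-90 (left) and SK-MEL-103 cells (middle). The right panel shows each compound over DMSO in doxorubicin-treated IMR-90 cells. All symbols are open because no adjusted p is below 0.05 in the fit without a replicate block. BCL2L1 with siMFN1 lies at -0.32 in IMR-90, apart from the other siRNAs.

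For the compounds, given at 20 µM (MFI8) and 10 µM (BI), doses that differ, no member was called by edgeR or DESeq2 against DMSO, and none passed an unadjusted p of 0.05. Of all genes, 0% were called by edgeR for MFI8, BI or MFI8 against BI, with 371, 175 and 326 genes at an unadjusted p below 0.05 and 1, 0 and 0 called by DESeq2. BCL2L1 had 218, 238 and 219 CPM with MFI8 and 218, 208 and 215 CPM with BI, against 217, 238 and 212 CPM in DMSO. MCL1 had 363, 387 and 349 CPM with MFI8 and 374, 311 and 378 CPM with BI, against 358, 297 and 327 CPM. PMAIP1 had 92.1, 69.7 and 87.7 CPM with MFI8 and 91.1, 62.2 and 96.3 CPM with BI, against 98.7, 81.3 and 94.8 CPM. For all 10 members the libraries overlapped between MFI8 and DMSO (5.49% of all genes did not), BI and DMSO (3.44%) and MFI8 and BI (5.22%). The numbers pair these libraries, and neither this overlap nor the intervals below use the pairs. With the replicate number as a block, 0 members and 0 of all genes were called in each of these comparisons. The 2 SE interval was -0.15 to 0.19 for BCL2L1, -0.06 to 0.39 for MCL1 and -0.51 to 0.24 for PMAIP1 with MFI8, and -0.22 to 0.11, -0.11 to 0.34 and -0.51 to 0.24 with BI. Over the 3 groups, the highest mean of a member was 1.05 to 1.18 times the lowest.

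The counts for the wider lists that follow are to be read against all genes, of which 51.8% were called with doxorubicin in IMR-90 on day 7 (median 0.09), 55.9% on day 9 (0.10) and 60.4% in SK-MEL-103 (0.03). Of 14 other genes of the BCL2 family or only linked to it, as MOAP1 and BCLAF1 are, 10 passed the filter in each comparison. In IMR-90, 5 rose and 2 fell on day 7 (median 0.30), and 3 rose and 2 fell on day 9 (0.23). In SK-MEL-103, 5 rose and 3 fell (0.69). These 7, 5 and 8 of 10 stand near the shares of all genes. BMF, a BH3-only gene, averaged 19.0 ± 5.30 CPM in doxorubicin-treated IMR-90 cells on day 7, against 5.57 ± 4.19 CPM, and 64.7 ± 19.1 CPM in SK-MEL-103, against 6.85 ± 7.68 CPM. Its log2 fold changes were 1.80, 1.94 on day 9 and 3.04 in SK-MEL-103. BCL2L12 fell by 1.72, 1.77 and 1.63, and BCLAF1 by 0.99, 0.89 and 0.62. HRK, a BH3-only gene best known from neurons, and BOK, a relative of BAX, rose in SK-MEL-103, by 1.87 and 1.40, at levels of 2.07 and 2.49 CPM with doxorubicin.

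Of 20 genes of the apoptosome, caspases and their inhibitors, 1 rose and 6 fell in IMR-90 on day 7 (median -0.23), 1 rose and 10 fell on day 9 (-0.34), and 4 rose and 8 fell in SK-MEL-103 (-0.13). The 7 called on day 7 are a smaller share than the 51.8% of all genes, and the 11 on day 9 and 12 in SK-MEL-103 are near 55.9% and 60.4%. DIABLO, which frees caspases from their inhibitors, rose by 1.46, 0.79 and 0.63, at low levels (mean log2 CPM of 1.38, 1.45 and 2.02). Its day 9 call was lost without doxorubicin-treated library 1 or 3 or proliferating library 1 or 2 (0.59 to 0.80, adjusted p of 0.0683 to 0.111). BIRC5, an inhibitor of apoptosis made in dividing cells, averaged 11.1 ± 3.58 CPM in doxorubicin-treated IMR-90 cells on day 7, against 192 ± 28.3 CPM, and 0.514 ± 0.419 CPM in SK-MEL-103, against 163 ± 29.9 CPM. MKI67 fell in the same comparisons. CASP2 fell by 1.30 and 1.10 in the IMR-90 experiments, and CYCS, the cytochrome c gene, by 1.39 in SK-MEL-103, where CASP9 rose by 0.61. Of 11 death receptor and adaptor genes, 6 rose and 1 fell on day 7 (11 tested, median 1.11), 7 rose and 1 fell on day 9 (11 tested, 1.00) and 6 rose and 2 fell in SK-MEL-103 (8 tested, 0.45), beside 51.8%, 55.9% and 60.4% of all genes. FAS rose by 1.22, 1.17 and 0.94, CFLAR, which blocks caspase 8, by 1.66, 1.41 and 0.83, and the adaptor FADD fell by 0.72, 0.82 and 0.30. The call on FADD in SK-MEL-103 was lost without doxorubicin-treated library 2 or proliferating library 1 (-0.28 and -0.22, adjusted p = 0.0546 and 0.0838). The decoy receptor TNFRSF10D averaged 422 ± 99.7 CPM against 120 ± 38.5 CPM in IMR-90 on day 7 and was at or below 0.0251 CPM in SK-MEL-103.

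Of 22 genes that regulate the members, 6 rose and 3 fell in IMR-90 on day 7 (22 tested, median -0.03), 8 rose and 3 fell on day 9 (21 tested, -0.04) and 8 rose and 6 fell in SK-MEL-103 (21 tested, 0.05). The 9 called on day 7 are a smaller share than the 51.8% of all genes, and the 11 and 14 called in the others are near 55.9% and 60.4%. MDM2, a ubiquitin ligase, rose by 1.24 (SE 0.18, adjusted p = 6.49e-05) in IMR-90 on day 7, and BCL6, a repressor, and the stress factor DDIT3 by 1.05 and 1.04. E2F1, which drives entry into S phase, fell by 2.91, 2.28 and 4.44. In SK-MEL-103 FOXO1 rose by 2.02 and STAT3 by 1.18, and ATF4 fell by 0.50.

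Over the 16 groups, BCL2 had the widest range of group means (1.47 to 32.6 CPM, 22.2 times), followed by BBC3 (10.6 to 220 CPM, 20.8 times) and BCL2L11 (8.33 times), and MCL1 had the narrowest (246 to 401 CPM, 1.63 times). The genes whose pattern over the 16 group means, centred on each experiment, was most like that of a member were taken from 10920 genes. They were C4orf46 and SMPD4 for BCL2 (r = 0.993 and 0.990), FBXO10 and TMEM127 for BBC3 (0.991 and 0.990), MTMR9 and ZNF444 for BCL2L1 (0.974 and 0.973) and USP53 and MPP2 for PMAIP1 (0.956 and 0.935). The least matched was MCL1, with CNNM3 at 0.909 and RABIF at 0.901. Among the members, BCL2 and BBC3 had r = -0.93 over the 16 group means. These means share libraries, depth and the contrast of doxorubicin-treated with proliferating groups, and no test is attached.

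The IMR-90 siRNA libraries carry sample numbers in a lower and a higher range, with replicates 1 and 2 of the doxorubicin-treated and proliferating cNEG groups in the lower one and replicate 3 in the higher. Within the lower range (2 against 2 libraries) and the higher (1 against 1), the log2 difference of doxorubicin-treated minus proliferating cells was -2.91 and -2.97 for BCL2, 0.53 and 0.57 for BCL2L1, 0.75 and 1.24 for BCL2L2 and 1.22 and 1.58 for PMAIP1. It was 1.66 and 0.67 for BBC3 and 0.71 and 0.15 for BAK1. BAX went opposite ways, at 0.16 and -0.24. What the numbers record is not given, and the part of depth, which also differs by replicate, was not tested.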

How the data were processed

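Messenger RNA of IMR-90 and SK-MEL-103 cells was measured in 48 libraries, 3 in each of 16 groups, made with a stranded poly(A) kit per the labels' protocols. The deposited table holds raw counts per Ensembl gene, whole numbers that the authors did not normalise. Per the submitters' processing notes, the tools were STAR 2.7.10a, Trim Galore 0.6.7 and featureCounts (its version is not listed), with GRCh38. The annotation release, strand setting, handling of reads with several positions and any filter are not given in the sources used here. Without molecular identifiers, PCR copies count as reads. Depth was 53390716 to 79204217 counts in libraries numbered 1, between 30176556 and 50828283 in those numbered 2 and between 15206115 and 31127306 in those numbered 3, where low genes are least precise. No pair of libraries of a group was a copy of another (smallest chi-square per degree of freedom 11.1 over 48 pairs). Identifiers with a symbol numbered 48679, and 0.122% of counts had none. Positions and exon lengths are from GENCODE 29, and the counting may have used another release.

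The test was edgeR 4.0.16 (limma 3.58.1, R 4.3.3): filterByExpr, TMM and the quasi-likelihood fit. It took all groups of an experiment together (18, 18 and 12 libraries), with no replicate block, or 36 libraries between lines. There were 14 comparisons within experiments, 5 differences of an effect between lines and 2 comparisons of level between lines. The SE was obtained by dividing the log2 fold change by the root of F, and intervals are 2 SE on either side. Scripts were tested on simulated counts. Alternatives were DESeq2 1.42.0 (size factors and test), library totals, no filter on low counts, a replicate block, a term for library number range, only the libraries of the compared groups, and each library left out in turn. An older form of the quasi-likelihood fit, and the block with only the libraries of the compared groups, were added after seeing the data.

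Same-numbered libraries were checked for pairing by correlating their deviations from group means. Every pair exceeded 0.1 in the IMR-90 siMFN1, siMFN2 and siMFN1+2, all SK-MEL-103 siRNA and all compound comparisons, so the numbers pair those libraries, and not in the 3 doxorubicin comparisons or IMR-90 siMAVS. The title of 1 library of SK-MEL-103 with siMFN2 gives no number, and 1 was assigned.

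The 10 members are named in every comparison. Of the other lists, the up to 3 highest and 3 lowest called genes per doxorubicin comparison at a mean log2 CPM of 0 or more could be named, with the checks MFN1, MFN2, MAVS, CDKN1A, MKI67 and LMNB1, and 2 genes per member for likeness of pattern (at a mean log2 CPM of 2 or more). Members and lists were chosen with earlier results of these data known. A few genes of these lists and 1 motif are not reported here.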

Additional observations from a re-analysis of the deposited data

Results flagged for a closer look

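The effect of doxorubicin on 3 members differed between the lines by a test of the difference itself, given as SK-MEL-103 minus IMR-90 on day 7. For PMAIP1 the difference was -2.06, with all 3 doxorubicin-treated libraries below the proliferating ones in SK-MEL-103 (43.6 ± 2.89 against 71.2 ± 6.88 CPM) and all 3 above them in IMR-90 (122 ± 4.51 against 48.8 ± 9.59 CPM). For BCL2L2 the difference was -0.85, with overlapping libraries in SK-MEL-103 (34.2 ± 1.98 against 31.5 ± 5.25 CPM) and all 3 doxorubicin-treated libraries higher in IMR-90 (63.0 ± 13.0 against 32.9 ± 1.81 CPM). For BCL2L1 the difference was 0.39, with all 3 doxorubicin-treated libraries higher in SK-MEL-103 (479 ± 5.34 against 245 ± 22.2 CPM) and in IMR-90 (246 ± 6.67 against 169 ± 9.60 CPM). The PMAIP1 and BCL2L2 differences kept their direction and their call in all 18 alternatives run, and that of BCL2L1 was not called in 3 of them (values are mean ± SD, n = 3).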

How the results depend on the processing

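Over the alternatives run, 3115 values of members kept their side of the threshold, 28 lost a call and 27 gained one, and changes of sign were seen among uncalled values alone. Leaving out 1 library at a time, the count of members called was 5 to 6 for doxorubicin in IMR-90 on day 7, 5 to 7 on day 9, 6 to 8 in SK-MEL-103 and 3 to 4 for the difference between lines, 6 to 7 for levels in proliferating and 8 to 10 in doxorubicin-treated cells between lines, and 0 to 0 for every siRNA and compound. The shares of all genes called with 1 library left out are not given here, so these counts are not set against all genes. In IMR-90 with siMFN1, 1 member, BCL2L1, was called with DESeq2's test, with the replicate block and with the term for library numbers. Of all genes, 863 were called with DESeq2's test and 724 with the block. The count of members was 2 with the block and only the libraries of the compared groups (MCL1 -0.36, PMAIP1 -0.44). That last setting gave 1 with siMFN1+2 in IMR-90 (PMAIP1 -0.31). In SK-MEL-103 it gave 5 with siMFN1, 1 with siMFN2 (BID 0.19) and 2 with siMFN1+2 (BCL2 0.32, BAK1 -0.16). The setting leaves few residual degrees of freedom, its share of all genes called is not given here, and the cause was not tested. Under the replicate block, which does not pair the doxorubicin groups, 6, 9 and 8 members were called in IMR-90 on day 7, SK-MEL-103 and IMR-90 on day 9, adding MCL1 in SK-MEL-103 and MCL1 and BAK1 on day 9. All genes gained calls as well, to 10579 of 19077, 11713 of 17945 and 13283 of 19056. Without the block 9878, 10846 and 10652 genes were called. For levels between lines with doxorubicin the block gave 8 members in place of 9, without BID, and 11900 of all genes in place of 13236. On the log2 scale, group mean levels moved by at most 0.18 under library totals and 0.11 under DESeq2's size factors, by more than 1 SD for 29 and 10 of 160 means. Library totals shift the log2 fold changes of all genes by 0.12 on day 9. Depth limits BCL2 and BCL2L11 in IMR-90 most.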

Other observations

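Other genes near the family also changed with doxorubicin (mean ± SD, n = 3 each). MOAP1, a partner of BAX, averaged 45.1 ± 15 CPM in doxorubicin-treated IMR-90 cells on day 7, against 15.3 ± 4.67 CPM in proliferating cells (log2 fold change 1.59, edgeR adjusted p = 0.00365), and 39.6 ± 7.18 against 18.9 ± 2.21 CPM on day 9 (1.07, edgeR adjusted p = 0.00274). BNIP3, a receptor for the removal of mitochondria, averaged 37.9 ± 2.26 CPM in doxorubicin-treated SK-MEL-103 cells, against 62.9 ± 13.0 CPM (-0.83, edgeR adjusted p = 2.89e-06). BIRC3, an inhibitor of apoptosis, averaged 4.04 ± 1.49 CPM there, against 11.7 ± 6.01 CPM in proliferating ones, with overlapping libraries (-1.57, edgeR adjusted p = 0.00152). In IMR-90 the initiator CASP8 averaged 15.7 ± 2.00 CPM with doxorubicin on day 9, against 32.8 ± 3.23 CPM (-1.06, edgeR adjusted p = 0.000465), and the executioner CASP6 9.58 ± 1.46 CPM on day 7, against 21.4 ± 1.02 CPM (-1.12, edgeR adjusted p = 9.7e-06). TRIB3, which DDIT3 induces in stress, fell by 0.74 on day 7 and by 1.11 on day 9, where DDIT3 rose by 1.04 and 1.38.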
